A study of Mus musculus with 9 samples.

Results

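The genes for 8 acute-phase proteins, Saa1, Saa2, Saa3, Lcn2, Hp, Orm1, Orm2 and Ptx3, were followed in 9 RNA-seq libraries of mouse osteoblast cultures. They were found by their symbols among the 40213 gene symbols of each count table, and all 8 were present. Primary calvarial pre-osteoblasts of wild-type mice (WT, pups 3 days old), isolated from the skull vault, were infected on day 3 with a control adenovirus (Ad-C) or with a virus for Hif1a (named Ad-Hif1a) or for Hif2a (named Ad-Hif2a, gene symbol Epas1), with 3 libraries per group. All cultures were kept in osteogenic medium until day 6, with β-Gp at 5 mM and L-AA at 50 μg/ml, in normal air with 5% CO2. The study asked how the 2 transcription factors shape gene expression in differentiating osteoblasts. Each virus carries its gene into whatever cells of the culture it infects, so the levels below are averages over infected and uninfected cells, and fewer cells of a type cannot be told apart from less RNA per cell.

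Acute-phase proteins are secreted proteins whose amounts in blood change during infection or injury. The liver is their best-known source, where interleukin-6 acts through STAT3, and interleukin-1 and tumor necrosis factor through NF-kB, together with the C/EBP factors. Several are also made outside the liver. Saa3 is the serum amyloid A that mice produce mainly in other tissues, Lcn2 encodes the iron-siderophore binding protein lipocalin 2, which osteoblasts secrete, and Ptx3 encodes the long pentraxin that stromal and myeloid cells release at sites of inflammation. HIF-1α and HIF-2α are the oxygen-regulated subunits of the hypoxia-inducible factors, which bind DNA at short motifs with the core ACGTG or GCGTG.

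The promoters of Saa3, Saa1 and Lcn2, which had few or no counts with Ad-C, and that of Ptx3, which had many, are shown for the sequence before each start site. RefSeq (GRCm38.p6) held a promoter for 6 of the 8 genes, Saa1, Saa2, Saa3, Lcn2, Orm2 and Ptx3, and those of Saa2 and Orm2 were searched but are not printed. Each printed run holds the 250 bases before the start, 5′ to 3′ on the strand of the gene, and capitals mark a match to the C/EBP motif TTGCNNAA on either strand.
Saa3, chr7:46715677-46715926, minus strand: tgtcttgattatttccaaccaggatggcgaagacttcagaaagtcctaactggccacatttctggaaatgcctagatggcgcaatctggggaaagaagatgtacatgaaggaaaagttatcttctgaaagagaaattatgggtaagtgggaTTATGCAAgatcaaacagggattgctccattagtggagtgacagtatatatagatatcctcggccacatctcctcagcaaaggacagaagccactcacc
Saa1, chr7:46742981-46743230, minus strand: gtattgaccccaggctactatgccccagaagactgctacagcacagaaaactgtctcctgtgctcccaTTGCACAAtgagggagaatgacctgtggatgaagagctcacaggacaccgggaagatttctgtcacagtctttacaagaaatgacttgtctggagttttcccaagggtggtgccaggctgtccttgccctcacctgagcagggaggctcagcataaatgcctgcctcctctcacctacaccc
Lcn2, chr2:32387740-32387989, minus strand: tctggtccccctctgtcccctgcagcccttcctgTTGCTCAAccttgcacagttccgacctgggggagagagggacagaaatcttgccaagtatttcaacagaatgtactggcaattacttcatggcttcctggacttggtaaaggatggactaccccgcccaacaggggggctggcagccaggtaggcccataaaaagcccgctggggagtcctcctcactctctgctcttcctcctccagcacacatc
Ptx3, chr3:66219637-66219886, plus strand: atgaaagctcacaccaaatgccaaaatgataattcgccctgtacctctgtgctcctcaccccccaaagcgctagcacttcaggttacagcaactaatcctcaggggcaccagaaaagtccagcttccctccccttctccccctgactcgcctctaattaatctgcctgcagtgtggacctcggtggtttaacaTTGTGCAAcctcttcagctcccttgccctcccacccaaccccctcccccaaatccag

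Each of the 6 windows held the C/EBP letters, at 182 to 175 bases before the start in Saa1, 183 to 176 in Saa2, 99 to 92 in Saa3, 216 to 209 in Lcn2, 120 to 113 in Orm2 and 57 to 50 in Ptx3. The same letters stood in 9.56% of 32851 RefSeq windows of this length. The windows of Saa1 and Saa2 carry the same match, TTGCACAA. None of the 6 windows held ACGTG (16.6% of all windows), GCGTG (28.2%), the NF-kB motif, GGG and TTCC with 3 free bases between them (4.65%), or the STAT3 motif TTCNNNGAA (7.02%), which says only that these letters are not in the windows. TATAAA stood in the window of Orm2 alone, and in 12.4% of all windows. Motifs were read on both strands, TTGCNNAA can match itself on the other strand at the same place, as it did in Orm2, and no matches to different motifs overlapped in these windows. A match of letters is a description of the sequence and shows no binding.

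The 8 genes were chosen by their rise over Ad-C in these same libraries, so their levels against Ad-C are given as a description, with no test. Levels are counts scaled to library size by TMM (CPM), and the files held 14372589 to 18623403 counts per library. The count filter of edgeR kept 14413 genes for testing, among them 7 of the 8, and Orm2 was not. Among all genes tested, 6.04% rose with Ad-Hif1a and 7.87% with Ad-Hif2a at an adjusted p under 0.05, while 5.22 and 7.72% fell (11.3 and 15.6% in either direction), and 6 of the 7 were among these in both comparisons, from which nothing is read since these are the comparisons they were chosen on. The delivered genes were high in their own libraries. Hif1a had a mean of 190 ± 3.45 CPM (SD, n = 3) in the Ad-C libraries, 1830 ± 548 with Ad-Hif1a and 535 ± 76.5 with Ad-Hif2a. Epas1 stood at 45.9 ± 3.58, 524 ± 140 and 1665 ± 736 CPM, so that each vector group also held more of the other gene than the Ad-C libraries did. Vector and cellular transcripts of these genes cannot be told apart in the counts.

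The serum amyloid A genes split into a very abundant Saa3 and traces of Saa1 and Saa2. Saa3 had 30, 22 and 14 counts in the Ad-C libraries, 125570, 73588 and 53656 with Ad-Hif1a, and 171785, 71760 and 299970 with Ad-Hif2a. It went from a gene at the edge of detection to one of the most abundant of the culture, since its rank among all genes was 12343 to 13378 with Ad-C, 8, 14 and 23 with Ad-Hif1a, and 7, 19 and 3 with Ad-Hif2a. The means were 1.21 ± 0.454 CPM, 4905 ± 1965 CPM and 12013 ± 9010 CPM (SD, n = 3). The fitted log2 fold change was 11.98 (SE 0.85) with Ad-Hif1a and 13.13 (SE 0.89) with Ad-Hif2a, and the ratio of summed counts was 4109 (95% counting interval 3230 to 5313) and 9339 (7340 to 12075). Counting intervals cover counting error only. Without replicate 3 of Ad-Hif2a, the highest library, the log2 fold change with Ad-Hif2a was 12.21.

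Saa1 and Saa2, which the mouse liver makes in its acute phase, stayed far below Saa3. Saa2 had 0 counts in all 3 Ad-C libraries, 409, 272 and 156 with Ad-Hif1a and 449, 168 and 672 with Ad-Hif2a. Against a floor of 3 counts over the Ad-C group this is at least 299-fold higher with Ad-Hif1a and at least 487-fold higher with Ad-Hif2a. Saa1 had 1, 0 and 0 counts with Ad-C, 170, 101 and 53 with Ad-Hif1a and 204, 89 and 440 with Ad-Hif2a, a ratio of summed counts of 348 (counting interval 61.9 to 13769) and 831 (149 to 32876). Both genes were thus absent or near it in every control library and present in all 6 vector libraries, at 3.29 to 48.9 CPM.

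Saa3 made up 99.5 to 99.6% of the summed Saa1, Saa2 and Saa3 counts in every vector library. Per 1000 counts of Saa3 there were 0.988 to 1.47 counts of Saa1 and 2.24 to 3.70 of Saa2, while Saa3 itself differed 6.55-fold in CPM between the lowest and the highest vector library. A single transcript per gene was taken from GENCODE vM21 by the number in its name. Those of Saa1 and Saa2 share 94.4% of aligned bases, and those of Saa1 and Saa3 share 76.0%. Of the stretches of 31 bases in the Saa1 transcript, 26.8% also occur in Saa2 and 4.84% in Saa3, and 1.91% of those of Saa2 occur in Saa3. How reads that fit several of these genes were assigned is not given in the sources used here, so the low counts of Saa1 and Saa2 are uncertain, and the part that Saa3 reads have in them was not tested. Saa4, the constitutive family member whose gene lies between Saa3 and Saa1, had 0 counts in all Ad-C libraries, 29, 34 and 38 with Ad-Hif1a and 57, 48 and 28 with Ad-Hif2a, and its transcript shares no stretch of 31 bases with any of the other 3.

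**Figure D1:**
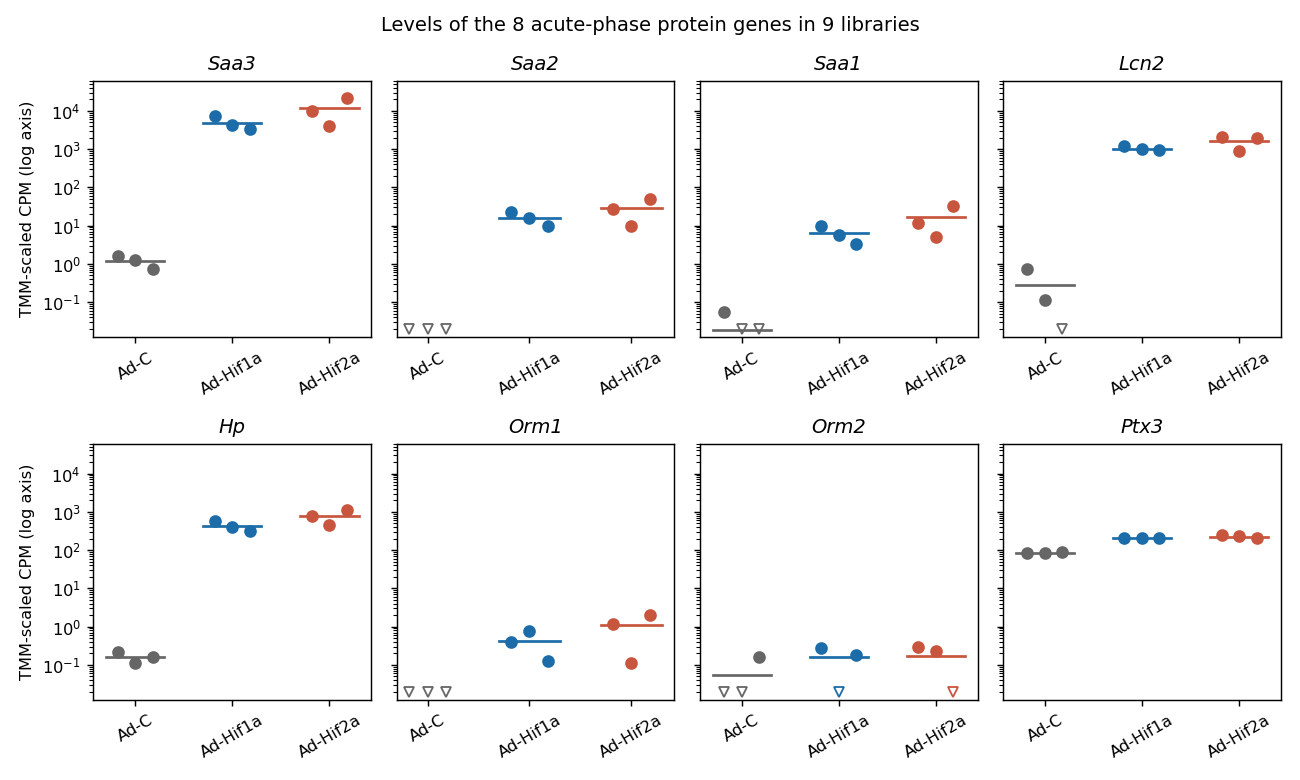
Level of each of the 8 genes in the 9 libraries, as TMM-scaled CPM on a log axis, with 1 point per library in the order of the replicate numbers and a line at the group mean, and open triangles at the foot for libraries with 0 counts. Saa3, Lcn2 and Hp move by 3 or more steps of 10 over Ad-C, Ptx3 is already at 84.0 to 87.7 CPM with Ad-C, and Orm1 and Orm2 stay at or below 2.04 CPM.

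Lcn2 and Hp, genes of iron and heme handling, rose from almost no counts. Lcn2 had 13, 2 and 0 counts with Ad-C, 20736, 17183 and 15049 with Ad-Hif1a and 35424, 15595 and 26523 with Ad-Hif2a. Its means were 0.276 ± 0.386, 1035 ± 124 and 1636 ± 650 CPM (SD, n = 3), with fitted log2 fold changes of 11.98 (SE 0.75) and 12.55 (SE 0.76). These rest on 15 control counts, of which 13 came from replicate 1 of Ad-C, and without that library they were 13.88 and 14.47. Every vector library was at or above 891 CPM and every control library at or below 0.717 CPM.

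Hp, which encodes haptoglobin, the plasma protein that captures free hemoglobin, had 4, 2 and 3 counts with Ad-C, 10023, 7085 and 4933 with Ad-Hif1a and 12951, 8135 and 15075 with Ad-Hif2a. The means were 0.164 ± 0.0544, 428 ± 131 and 775 ± 316 CPM, and the log2 fold changes 11.31 (SE 0.52) and 12.12 (SE 0.53). The 9 control counts were spread over all 3 libraries, and leaving out any 1 library gave values of 11.03 to 11.79 and 11.59 to 12.38.

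Orm1 and Orm2, which encode the plasma glycoprotein orosomucoid, stayed near the limit of detection. Orm1 had 0 counts in every Ad-C library, 7, 13 and 2 with Ad-Hif1a and 20, 2 and 28 with Ad-Hif2a, at least 7.87-fold and 18.9-fold higher over the same floor of 3 counts. It was the one of the 7 tested genes that did not pass in edgeR, whereas DESeq2 called it in both comparisons, and nothing is read from either. Orm2 had 0, 0 and 3 counts with Ad-C, 5, 0 and 3 with Ad-Hif1a and 5, 4 and 0 with Ad-Hif2a. Its ratios of 2.86 (counting interval 0.687 to 16.7) and 3.40 (0.849 to 19.5) include no difference. The Orm1 and Orm2 transcripts share 91.0% of aligned bases and 27.5% of their stretches of 31 bases, so the split of these few counts between them is uncertain as well.

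Ptx3 behaved in another way. It had 1523, 1499 and 1642 counts with Ad-C, 3695, 3454 and 3425 with Ad-Hif1a and 4106, 4018 and 2844 with Ad-Hif2a, and was the only one of the 8 with a substantial level in the control cultures. The means were 85.2 ± 2.15, 207 ± 6.11 and 226 ± 17.8 CPM (SD, n = 3), log2 fold changes of 1.28 (SE 0.14) and 1.41 (SE 0.14), or 2.43-fold and 2.65-fold. Leaving out any 1 library gave 1.24 to 1.32 and 1.35 to 1.48. Its spread between replicates was small, since the SD of its log2 CPM was 0.04, 0.04 and 0.11 in the 3 groups, lower than that of all but 9.76, 3.66 and 8.97% of the genes tested. That of Saa3 was 0.52, 0.56 and 1.21, higher than that of 95.5, 91.3 and 97.1% of them.

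Between Ad-C and each vector, the libraries of the groups did not overlap for 7 of the 8 genes, all but Orm2. Of all genes tested, 24.5% were likewise higher without overlap with Ad-Hif1a and 23.9% with Ad-Hif2a, and 50.4 and 49.5% did not overlap in either direction.

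Per length of transcript, so that genes can be set against each other, the level with Ad-Hif1a was 8838 ± 3541 CPM per kb for Saa3, 1132 ± 135 for Lcn2, 319 ± 97.7 for Hp, 109 ± 3.22 for Ptx3, 26.8 ± 11.1 for Saa2 and 10.3 ± 5.23 for Saa1 (SD, n = 3). Transcript lengths of 555 to 1898 bases came from the same single transcripts of GENCODE vM21. The order was the same with Ad-Hif2a, at 21646 ± 16235, 1788 ± 710, 576 ± 235, 119 ± 9.37, 46.7 ± 32.5 and 26.9 ± 23.0 CPM per kb. With Ad-Hif1a no neighbours in this order overlapped between their libraries, although Saa1 reached 15.8 and Saa2 began at 16.0 CPM per kb. With Ad-Hif2a the ranges of Saa2 and Saa1 overlapped and those of the other neighbours did not. With Ad-C, Ptx3 led at 44.9 ± 1.13 CPM per kb and no other gene exceeded 2.98 in any library.

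Together the 8 genes took 0.00874 to 0.00892% of all counts with Ad-C, nearly all of them Ptx3. They took 0.908, 0.606 and 0.476% with Ad-Hif1a and 1.30, 0.570 and 2.40% with Ad-Hif2a. Saa3 alone was 69.4 to 86.8% of the counts of the 8 genes in the vector libraries. In replicate 3 of Ad-Hif2a it was 2.09% of all counts of the library. The TMM factors of the 9 libraries were 0.957 to 1.03.

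**Figure D2:**
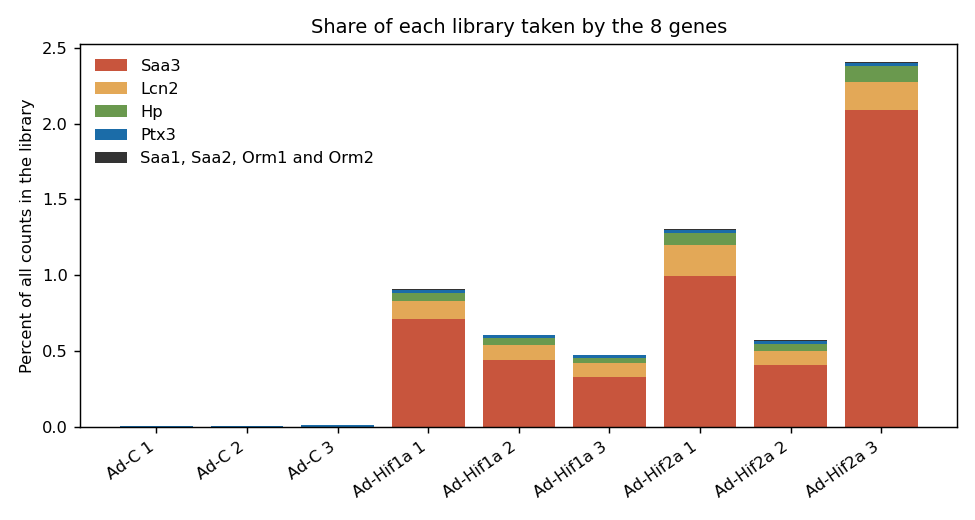
Share of all counts of each library (percent, from 0) taken by the 8 genes, with Saa3, Lcn2, Hp and Ptx3 in their own colors and the other 4 genes together. The bars of the Ad-Hif1a libraries reach 0.476 to 0.908% and those of the Ad-Hif2a libraries 0.570 to 2.40%, mostly Saa3, and are barely visible with Ad-C at 0.00874 to 0.00892%.

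Within the vector libraries, Saa3, Saa1 and Hp kept nearly the same order. Saa3 was highest in replicate 3 of Ad-Hif2a (21819 CPM), then in replicate 1 of Ad-Hif2a (10122), replicate 1 of Ad-Hif1a (7107), replicate 2 of Ad-Hif1a (4276), replicate 2 of Ad-Hif2a (4098) and replicate 3 of Ad-Hif1a (3331). Saa1 had exactly this order, from 32.0 to 3.29 CPM. Hp ran from 1097 to 306 CPM in the same order except that replicate 2 of Ad-Hif2a (465 CPM) stood above replicate 2 of Ad-Hif1a (412 CPM). Hp counts were 50.3 to 113 per 1000 Saa3 counts, with the lowest value in the library that had the most Saa3.

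Lcn2 followed less closely, with its highest level in replicate 1 of Ad-Hif2a (2087 CPM) rather than replicate 3 (1929 CPM) and its lowest in replicate 2 of Ad-Hif2a (891 CPM). Ptx3 did not follow, with 207 CPM where Saa3 was highest and 213 CPM where it was lowest. The 6 vector libraries lay between 201 and 242 CPM for Ptx3, a 1.21-fold range.

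Within each vector group, the order of Saa3 was the reverse of that of the delivered gene. With Ad-Hif1a, Hif1a stood at 1239, 1928 and 2322 CPM in replicates 1, 2 and 3, where Saa3 stood at 7107, 4276 and 3331 CPM. With Ad-Hif2a, Epas1 stood at 1994, 2179 and 822 CPM, where Saa3 stood at 10122, 4098 and 21819 CPM. With 3 libraries in a group this is a description of 2 orders. The 2 libraries with the highest Saa3 of their groups were also those that stood apart from the other vector libraries, with 2.84 and 2.71% of counts in the 13 protein-coding mitochondrial genes, against 3.56 to 5.58% in the other 4 and 5.73 to 6.17% with Ad-C. Replicate 3 of Ad-Hif2a also had the fewest counts of all libraries (14372589) and the lowest TMM factor (0.957). It held 17927 genes with a count, against 18611 to 19181 in the other libraries. The part of any of these measures in the level of Saa3 was not tested.

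**Figure D3:**
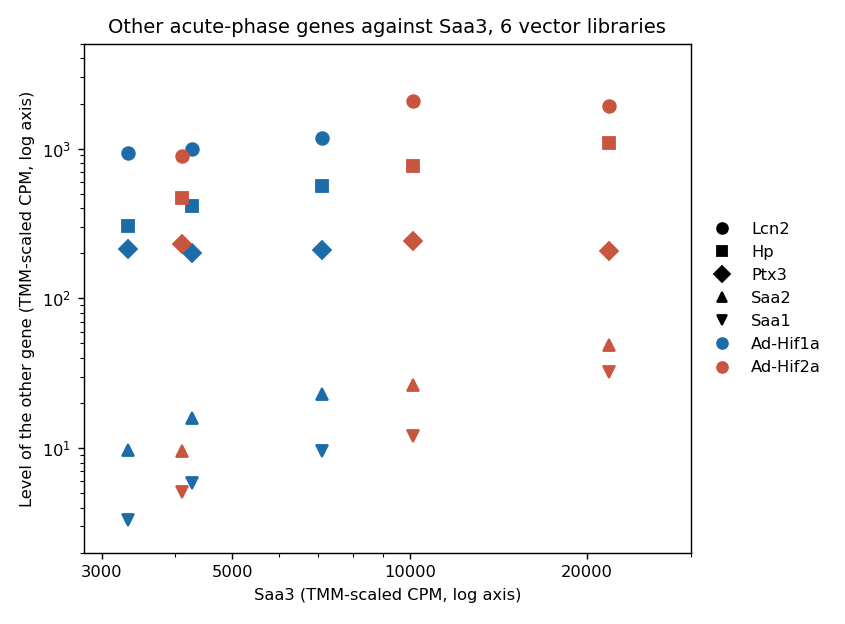
Levels of Lcn2, Hp, Ptx3, Saa2 and Saa1 (vertical) against that of Saa3 (horizontal) in the 6 vector libraries, both as TMM-scaled CPM on log axes, with 1 point per gene and library and the color giving the vector. Saa1, Saa2 and Hp mostly climb with Saa3 from left to right, whereas Ptx3 stays between 201 and 242 CPM.

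The difference between the vectors was not part of the choice of the genes against Ad-C, but both vectors were compared with the same Ad-C libraries when they were chosen. Against Ad-Hif1a, Ad-Hif2a gave log2 fold changes of 1.15 (95% interval -0.18 to 2.48) for Saa3, 1.07 (-0.47 to 2.61) for Saa1, 0.57 (-0.99 to 2.14) for Saa2, 0.57 (-0.48 to 1.63) for Lcn2, 0.81 (0.07 to 1.54) for Hp, 1.10 (-1.93 to 4.12) for Orm1 and 0.12 (-0.20 to 0.44) for Ptx3. None of the 7 passed (edgeR, adjusted p = 1.0 for each), where 0% of the 14413 genes did. For Hp the unadjusted p was 0.035 and for Saa3 0.081. The libraries of the 2 groups overlapped for all 8 genes, and 6.27% of the genes tested did not overlap, 3.07% being higher with Ad-Hif2a.

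The test had little reach in this comparison. The delivered gene Hif1a itself, at 1239 to 2322 CPM in the Ad-Hif1a libraries and 447 to 584 CPM in the others, had a log2 fold change of -1.75 (SE 0.25) and an adjusted p of 0.82 in edgeR. Over all genes, 338 had an unadjusted p under 0.05 in edgeR and 368 in DESeq2, where 19 genes and none of the 7 passed after adjustment. The intervals leave room for a Saa3 level 5.59-fold higher with Ad-Hif2a and for no difference. For Ptx3 they reach from 0.873-fold to 1.36-fold.

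With 1 library left out at a time, the direction was kept for Saa3, Saa1, Lcn2, Hp and Ptx3, and it turned for Saa2 and Orm1. Without replicate 3 of Ad-Hif2a the log2 fold change between the vectors was 0.22 (SE 0.17) for Saa3, 0.07 (SE 0.25) for Saa1, -0.24 (SE 0.24) for Saa2, 0.28 (SE 0.29) for Lcn2, 0.31 (SE 0.14) for Hp and -0.05 (SE 0.67) for Orm1. Without both replicate 1 of Ad-Hif1a and replicate 3 of Ad-Hif2a, which were singled out once the data were known, it was 0.03 (SE 0.21) for Saa3, -0.23 (SE 0.34) for Saa1, -0.71 (SE 0.29) for Saa2, -0.27 (SE 0.24) for Lcn2 and 0.19 (SE 0.18) for Hp. The value of Ptx3 was 0.20 (SE 0.12) and 0.21 (SE 0.15) in these settings. In the second setting the value of Saa3 was smaller than its SE, and those of Saa1, Saa2, Lcn2 and Orm1 were below 0.

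**Figure D4:**
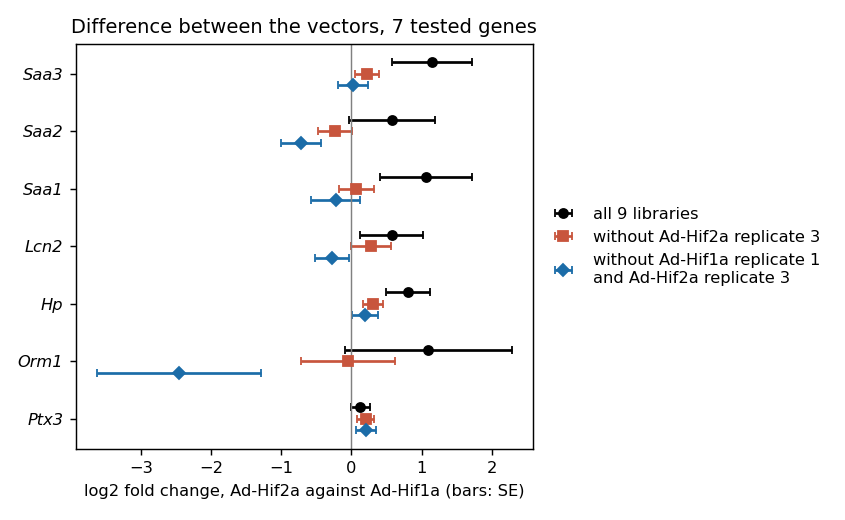
Log2 fold change of the 7 tested genes with Ad-Hif2a against Ad-Hif1a (horizontal, bars are SE), from all 9 libraries (black circles), without replicate 3 of Ad-Hif2a (red squares) and without replicate 1 of Ad-Hif1a and replicate 3 of Ad-Hif2a (blue diamonds). The values of Saa3, Saa2, Saa1, Lcn2, Hp and Orm1 shift toward or past 0 when these libraries are left out, and that of Ptx3 stays between 0.12 and 0.21.

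Other tested genes whose products rise in the acute phase mostly rose with the 8. Of 20 tested from a list of 38 positive acute-phase proteins, 18 had risen and 0 had fallen in the Ad-Hif1a libraries. In those of Ad-Hif2a it was 19 and 0, where 6.04 and 7.87% of all genes tested had risen. The medians were 3.32 and 3.79 on the log2 scale against 0.01 and 0.01 over all genes tested. The counts were 14 to 19 and 15 to 19 with 1 library left out. They are a description, since the list was chosen with earlier results of these data known. The count filter can also keep a gene through high vector libraries alone. Genes named with an adjusted p from this and the following lists were picked for the lowest edgeR p against Ad-C in their list. Their adjusted p values are therefore a description as well. C3, on which all routes of complement activation converge, reached log2 values over Ad-C of 5.04 (adjusted p = 6.3e-05, SE 0.20) and 5.30 (adjusted p = 3.8e-05, SE 0.20). Cfb, factor B of the alternative complement pathway, had 4.53 (adjusted p = 0.00027, SE 0.28) and 4.70 (adjusted p = 0.00018, SE 0.28). The mouse family related to human alpha-1-antichymotrypsin rose in several copies, led by Serpina3h at 5.03 (adjusted p = 6.3e-05, SE 0.17) and 5.11 (adjusted p = 3.8e-05, SE 0.17), with Serpina3g, Serpina3i and Serpina3f between 3.83 and 4.77 in the Ad-Hif1a comparison and between 3.90 and 4.58 in the other. Reads of these near-identical genes may be split between them. Crp, Apcs, Fga, Fgb and Fgg, which encode C-reactive protein, serum amyloid P and the fibrinogen chains and were named here after their values were seen, had 0 counts in all 9 libraries.

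Genes of proteins that fall in blood in the acute phase went both ways with Ad-Hif1a. Of 5 tested among 12, 2 had risen and 1 had fallen in the Ad-Hif1a libraries, and 2 and 0 in those of Ad-Hif2a. The shares over all genes tested were 6.04% risen and 5.22% fallen, and 7.87 and 7.72%. Trf, which encodes transferrin, fell by 1.32 on the log2 scale with Ad-Hif1a (edgeR adjusted p = 0.018, SE 0.25), from 14.1 ± 0.173 to 5.63 ± 1.33 CPM, and stood at 7.52 ± 1.69 CPM with Ad-Hif2a. Alb, the gene of albumin, rose by 2.48 (adjusted p = 0.044, SE 0.62) and 2.95 (adjusted p = 0.018, SE 0.60) on the log2 scale, the first being 1.89 without replicate 2 of Ad-Hif1a. Fetub, the gene of fetuin B, rose by 1.77 (adjusted p = 0.027, SE 0.38) and 1.76 (adjusted p = 0.023, SE 0.38). Both stayed at or below 5.24 CPM in every library. No gene of the list passed with Ad-Hif1a without replicate 1, 2 or 3 of Ad-C or replicate 2 of Ad-Hif1a, and 1 without replicate 1 of Ad-Hif1a. With Ad-Hif2a none passed without replicate 1, 2 or 3 of Ad-C or replicate 1 of Ad-Hif2a, and 1 without replicate 2 of Ad-Hif1a.

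Among the cytokines that drive the acute phase, Il6 rose with both vectors. It stood at 0.239 ± 0.253 CPM with Ad-C, 34.4 ± 4.99 with Ad-Hif1a and 95.8 ± 44.5 with Ad-Hif2a, with log2 fold changes of 7.13 (adjusted p = 0.0012, SE 0.69) and 8.57 (adjusted p = 0.00056, SE 0.71). These were 6.45 and 7.84 without replicate 1 of Ad-C, and 8.34 and 9.75 without replicate 2 of Ad-C. Lif, a cytokine that signals through the same receptor chain gp130, had 2.38 (adjusted p = 0.0055, SE 0.33) and 3.52 (adjusted p = 0.0010, SE 0.34). Il1b reached 0.480 ± 0.285 CPM with Ad-Hif1a, where it did not pass (of single libraries left out, it passed only without replicate 3 of Ad-Hif2a, and it passed in DESeq2), and 2.40 ± 1.02 with Ad-Hif2a, where it passed with a log2 fold change of 5.39 (adjusted p = 0.0050, SE 0.79). That value was 8.07 without replicate 3 of Ad-C, the only control library with counts of Il1b, and 5.98 without replicate 3 of Ad-Hif2a. Ad-Hif1a had 5 risen and 0 fallen among 19 cytokine and receptor genes tested, where 6.04% of all genes tested rose and 5.22% fell. Ad-Hif2a had 10 risen and 1 fallen, where 7.87% of all genes tested rose and 7.72% fell. The number of these 19 that passed with Ad-Hif1a was 2 without replicate 1 or 3 of Ad-C, 3 without replicate 2 of Ad-C, replicate 1 of Ad-Hif1a or replicate 2 of Ad-Hif1a, and 14 without replicate 3 of Ad-Hif2a. With Ad-Hif2a it was 4 without replicate 1 of Ad-C and 6 without replicate 3 of Ad-C.

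The level of Il6 did not have the order of Saa3. In replicate 3 of Ad-Hif2a, where Saa3 was highest, Il6 stood at 76.9 CPM, against 147 CPM in replicate 1 of Ad-Hif2a, and with Ad-Hif1a it was lowest (29.0 CPM) in replicate 1, where Saa3 was highest.

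Of the transcription factors and signal relays of the acute phase, 22 were tested, with 11 risen and 2 fallen for Ad-Hif1a and 11 risen and 4 fallen for Ad-Hif2a. Over all genes tested, 6.04% had risen and 5.22% had fallen with Ad-Hif1a, and 7.87 and 7.72% with Ad-Hif2a. Zc3h12a, an RNase that degrades cytokine mRNAs, had log2 fold changes of 3.62 (adjusted p = 0.00020, SE 0.20) and 3.94 (adjusted p = 0.00013, SE 0.20). Nfkbiz, the nuclear IkB protein that works with NF-kB at Lcn2 and other genes, had 3.39 (adjusted p = 0.00063, SE 0.27) and 3.71 (adjusted p = 0.00039, SE 0.28), and the related Bcl3 had 2.42 (adjusted p = 0.00026, SE 0.15) and 2.56 (adjusted p = 0.00016, SE 0.15). The C/EBP genes Cebpb and Cebpd had 2.69 (adjusted p = 0.0018, SE 0.29) and 2.14 (adjusted p = 0.00035, SE 0.15) with Ad-Hif1a, and 3.15 (adjusted p = 0.00082, SE 0.29) and 2.2 (adjusted p = 0.00024, SE 0.15) with Ad-Hif2a. Their part in the levels of the 8 genes was not tested. Socs3, the feedback inhibitor of STAT3 signaling, had 2.00 (adjusted p = 0.00096, SE 0.18) and 2.06 (adjusted p = 0.00068, SE 0.19). With Ad-Hif1a, 6 passed without replicate 1, 2 or 3 of Ad-C or replicate 2 of Ad-Hif1a, and with Ad-Hif2a, 8, 9 and 8 passed without replicate 1, 2 and 3 of Ad-C.

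Stat3 and Rela, the genes of the factors themselves, did not pass. Stat3 stood at 167 ± 6.70, 203 ± 16.1 and 187 ± 31.6 CPM and Rela at 63.5 ± 3.28, 66.5 ± 2.28 and 60.6 ± 8.29 CPM. Their counts do not measure the activity of the proteins.

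Receptors and binding partners of the 8 proteins were higher in part and lower in part. Ad-Hif1a had 4 risen and 5 fallen of 24 tested, where 6.04% of all genes tested rose and 5.22% fell. Ad-Hif2a had 6 risen and 5 fallen, where 7.87% of all genes tested rose and 7.72% fell. Mmp9, the gelatinase that binds lipocalin 2, had log2 fold changes of 3.14 (adjusted p = 0.0067, SE 0.47) and 4.32 (adjusted p = 0.0014, SE 0.46), which were 3.88 and 5.05 without replicate 1 of Ad-C. Fpr2, a receptor for serum amyloid A, stood at 1.08 ± 0.652, 5.54 ± 0.924 and 7.23 ± 1.44 CPM, and Tlr2, another of its receptors, at 25.9 ± 3.42, 53.7 ± 10.0 and 61.1 ± 11.9 CPM. Fcgr3, an Fc receptor that binds pentraxins, fell by 1.93 (edgeR adjusted p = 0.0010, SE 0.18) and by 1.62 (adjusted p = 0.0016, SE 0.18) on the log2 scale. Slc22a17, the lipocalin 2 receptor, stood at 17.8 ± 3.02, 13.8 ± 0.438 and 14.3 ± 5.05 CPM, and Cd163, the haptoglobin-hemoglobin receptor, at 0.619 ± 0.197, 0.788 ± 0.125 and 0.765 ± 0.613 CPM, and neither passed.

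Calls in the list of receptors changed when single libraries were left out, as did calls over all genes tested. Over all genes, 1624 passed with Ad-Hif1a, and 441, 635 and 487 without replicate 1, 2 and 3 of Ad-C. Without replicate 3 of Ad-Hif2a it was 5330. With Ad-Hif2a 2247 passed, and 688, 1014 and 769 without replicate 1, 2 and 3 of Ad-C. Of the receptor list with Ad-Hif1a, 3, 2, 2, 5 and 2 genes passed without replicate 1, 2 and 3 of Ad-C and replicate 1 and 2 of Ad-Hif1a, and 17 without replicate 3 of Ad-Hif2a. Of the same list with Ad-Hif2a, 3, 4, 5, 5 and 7 passed without replicate 1, 2 and 3 of Ad-C and replicate 1 and 2 of Ad-Hif2a. Fpr2 no longer passed with Ad-Hif1a without replicate 2 or 3 of Ad-C or replicate 1 or 2 of Ad-Hif1a. Tlr2 no longer passed without replicate 1, 2 or 3 of Ad-C with either vector, without replicate 2 of Ad-Hif1a with Ad-Hif1a, and without replicate 1 of Ad-Hif2a with Ad-Hif2a.

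**Figure D5:**
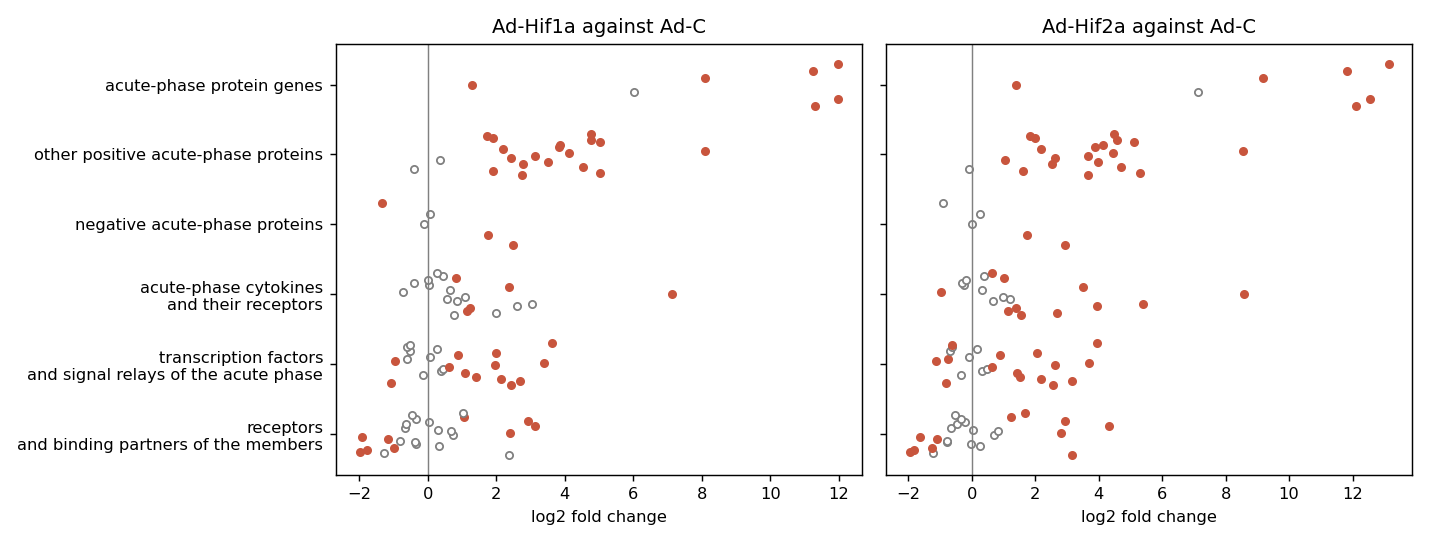
Log2 fold change against Ad-C of the tested genes of 6 lists in the Ad-Hif1a panel on the left and the Ad-Hif2a panel on the right. Each gene is a point, filled at an adjusted p under 0.05. Of the 20 other positive acute-phase proteins, 18 and 19 are filled and to the right of 0, and the positions of genes with 0 counts in Ad-C depend on the prior count of the fit.

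The neighbours of the 8 genes on their chromosomes were read in the same fit. In the RefSeq order (GRCm38.p6) Saa3, Saa4, Saa1 and Saa2 lie next to each other between Saal1 and Hps5. Saal1 had log2 fold changes of 0.24 (SE 0.27) and -0.13 (SE 0.28), and Hps5 of 0.27 (SE 0.15) and 0.32 (SE 0.15). Hps5 passed with Ad-Hif2a without replicate 3 of Ad-Hif2a, at 0.43 with an edgeR adjusted p of 0.044. Among the 2 nearest protein-coding genes on each side of each of the 8, 18 were tested and were not among the 8. The same 4 of these passed in each of the 2 comparisons, where 11.3 and 15.6% of all genes tested passed. They were Saa4 beside Saa3 and Saa1, Ptges2 and Slc25a25 beside Lcn2, and Shox2 beside Ptx3. Saa4 is of the same family as Saa1, Saa2 and Saa3. With no counts in Ad-C, it was kept for testing only through the vector libraries. The calls of Ptges2, Slc25a25 and Shox2 with Ad-Hif1a were lost without replicate 1, 2 or 3 of Ad-C or replicate 1 or 2 of Ad-Hif1a. Those of Ptges2 were also lost with Ad-Hif1a without replicate 2 of Ad-Hif2a and with Ad-Hif2a without replicate 1, 2 or 3 of Ad-C, and that of Slc25a25 with Ad-Hif2a without replicate 1 of Ad-C.

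Genes with patterns most like those of Saa3, Lcn2 and Ptx3 were sought among 7752 others with an average log2 CPM over 4. Over all 9 libraries, which fall into control and vector libraries, Pearson's r of log2 CPM with Saa3 was 1.00 to 2 decimals for Il13ra2, Marco, Serpina3g, Smim3 and Sod2. With Lcn2 it was 0.99 or more for Il13ra2, Tfr2, 3300005D01Rik, Anxa8 and Erfe, and with Ptx3 for Ncam1, Pcsk5, Abhd5, Zc3h12a and C3. Over the 6 vector libraries alone other genes led, Ypel3, Rpl22l1, Nsmce3, Chil1 and Tpt1 for Saa3, Dynlt1c, Ifit3, Lgals3, Mocs2 and Uqcrb for Lcn2, and Gdf11, Irak1, Fcgr3 and Acod1 for Ptx3, with r of 0.97 for these with Ptx3 and 0.99 or more for the other two. None of the genes named for one of the 3 over these 6 libraries was named for another. These are the highest of many values from few libraries that share 1 experiment, and are given as a description.

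Markers of other cell types that make acute-phase proteins were read in the same libraries. The 10 osteoblast markers ranged in their sum from 57816 to 63256 CPM (Ad-C), 50621 to 53955 (Ad-Hif1a) and 45106 to 52221 CPM in the Ad-Hif2a group, mostly the type I collagen genes. Of these markers 3 and 5 fell while 0 rose, where 5.22 and 7.72% of all genes tested fell and 6.04 and 7.87% rose. Their medians were -1.01 and -1.08 on the log2 scale. Those that fell were Sp7, Alpl and Bglap with both vectors and Runx2 and Dmp1 with Ad-Hif2a. As over all genes tested, the counts of fallen markers changed when single libraries were left out, in settings added for the markers after seeing the data. Without replicate 1 or 3 of Ad-C none fell with either vector, and without replicate 2 of Ad-C 1 and 2 did. With Ad-Hif1a 0 fell without replicate 2 of Ad-Hif1a, 1 without replicate 1 of Ad-Hif1a and 7 without replicate 3 of Ad-Hif2a, and with Ad-Hif2a 2 fell without replicate 1 of Ad-Hif2a and 1 rose without replicate 3 of Ad-Hif2a. The 14 macrophage markers summed to 3501 to 3768, 1517 to 1653 and 1528 to 1810 CPM, and 9 and 8 of them fell while 0 rose, or 3 to 12 and 4 to 11 with 1 library left out, lowest without replicate 1 of Ad-C and, for Ad-Hif1a, also without replicate 2 of Ad-Hif1a. The 10 hepatocyte markers summed to at most 2.84 CPM in any library, with 4 of them, among these Ahsg, Cyp3a11 and Fgb, at 0 in all 9. The 12 neutrophil markers summed to 3.31 to 4.99, 29.1 to 31.7 and 41.2 to 56.4 CPM, of which Mmp8, Camp and S100a8 passed with both vectors, S100a8 not without replicate 1 of Ad-C with Ad-Hif1a, while S100a9, Ngp and Retnlg were at 0 in all 9 and Ly6g, Mpo, Elane and Ltf at or below 0.436 CPM. The 9 adipocyte markers summed to 25.5 to 27.4, 31.2 to 41.8 and 34.95 to 49.6 CPM, with Cidec, Cfd, Retn and Lep at 0 in all 9. These sums were higher in every vector library than in any control library, as were 24.5 and 23.9% of single genes tested. Of 3 adipocyte markers tested, 0 rose with Ad-Hif1a and 1 with Ad-Hif2a. The call with Ad-Hif2a was lost in 4 of 9 fits with 1 library left out, and 1 rose with Ad-Hif1a without replicate 3 of Ad-Hif2a. The 8 skeletal muscle markers summed to 65.1 to 81.9, 11.05 to 13.5 and 6.42 to 9.48 CPM, with 3 of 4 tested fallen and 1 risen in both comparisons. The 8 endothelial markers summed to at most 8.44 CPM and the 6 epithelial markers to at most 1.38 CPM in any library. The part of other cells in the levels of the 8 genes was not tested beyond these sums.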

How the data were processed

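RNA of osteoblast cultures was sequenced in 9 libraries, 3 per vector. The authors deposited 1 table of raw counts per gene symbol and library. The submitters' processing notes name bcl2fastq 2.20.0.422, fastp, STAR, Salmon and GRCm39 without their roles, and how multi-mapped reads were assigned is not given in the sources used here. The study's methods describe n in general as counting independent experiments or mice. The labels do not say whether libraries of a group are separate cultures, so p-values measure only the spread between these libraries, which may be technical.

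Counts were fitted in R 4.3.3 with edgeR 4.0.16 (filterByExpr, TMM, robust quasi-likelihood test, Benjamini-Hochberg over all 14413 genes, threshold 0.05, two-sided), with group and replicate number as terms, since the study's methods name a paired test. Log2 CPM used a prior count of 2. Alternatives were no replicate block, DESeq2 1.42.0, other scaling factors, other filters, only the 6 libraries compared, each library left out, and 1 pair left out, which was chosen after seeing the data. The fit was tested on simulated data.

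The 8 genes and the gene lists were chosen with earlier results of these data known. Named genes are the 8, the 2 delivered genes, up to 6 genes per list with the lowest p against Ad-C, described receptors, and the 5 genes most correlated with Saa3, Lcn2 and Ptx3. 1 of these is not reported here. Chromosomal neighbours, Stat3, Rela, Trf, Alb, Fetub and single marker genes were named after their values were seen. Promoters came from RefSeq (GRCm38.p6) and transcripts from GENCODE vM21, a build other than that of the counts, and were used for sequence and gene order only. Proteins were not compared here.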

Additional observations from a re-analysis of the deposited data

How the results depend on the processing

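The fitted direction against Ad-C was kept for the 7 tested genes in every alternative in which they could be fitted, which is no sign of stability since they were chosen on these comparisons. Orm1 had no value in the fits to only the 6 libraries compared. With at least 10 counts required in every library, only Saa3 and Ptx3 could be tested, and 2 passed in each comparison with Ad-C. Between the vectors, Saa2 was -0.25 without replicate 3 of Ad-Hif1a and -0.24 without replicate 3 of Ad-Hif2a, Orm1 was -0.11 and -0.05, and without both replicate 1 of Ad-Hif1a and replicate 3 of Ad-Hif2a (chosen after seeing the data) Saa2 was -0.71, Orm1 -2.46, Saa1 -0.23 and Lcn2 -0.27. Over single libraries left out, the value between the vectors reached up to 1.80 for Saa1, 1.25 for Saa2, 0.97 for Lcn2 and 2.55 for Orm1. The cause was not tested.

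The labels do not say what the replicate numbers pair. Same-numbered libraries had correlations of their deviations of 0.05, -0.02 and 0.08 between Ad-Hif1a and Ad-C, 0.02, -0.10 and -0.10 between Ad-Hif2a and Ad-C, and -0.31, 0.10 and -0.57 between the vectors. With 3 libraries per group these values cannot tell whether the libraries were paired. Without the replicate block 3452 genes passed with Ad-Hif2a against Ad-C, 2 between the vectors, and 10 of the cytokine list with Ad-Hif1a. DESeq2 called 2470 and 3526 genes against Ad-C, 19 between the vectors, and 12 of the cytokine list with Ad-Hif1a. Without a filter 2 genes passed between the vectors. Under the filter of 10 counts per library, 5 and 7 receptors and partners passed with Ad-Hif1a and Ad-Hif2a, 1 negative acute-phase gene and 7 cytokine genes with Ad-Hif2a. In the 6 libraries of each comparison, 4706 genes, 13 cytokine genes and 15 receptors and partners passed with Ad-Hif1a. Without both libraries 4022, 4173 and 11 genes passed in the 3 comparisons, 13 cytokine genes with Ad-Hif1a, and 14 and 17 receptors and partners. The share of the 8 genes in Ad-C was 0.0087% of TMM-scaled library size.

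With 1 library left out, 441 to 5330 genes passed with Ad-Hif1a, 688 to 3309 with Ad-Hif2a and 0 to 12 between the vectors. Of the 8 genes 5 to 7, 6 to 7 and 0 passed. The range was 14 to 19 and 15 to 19 for the other positive acute-phase proteins, 0 to 3 and 0 to 3 for the negative, 2 to 14 and 4 to 14 for cytokines (0 to 1 between the vectors), 6 to 19 and 8 to 16 for transcription factors and relays, and 2 to 17 and 3 to 14 for receptors and partners.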
